A study of Mus musculus with 32 samples.

Results

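The regions described here are 604 stretches of chromatin in blood stem and progenitor cells that were more open in young bone marrow than in fetal liver and that stayed as open in adult marrow. They were picked by their measured levels out of 99037 regions in the developmental count table, of which 96960 are autosomal. Levels are in CPM, the read count of a region scaled to the library's total over all regions. F is the mean of the 6 fetal liver libraries, N the mean of the 6 perinatal and 1w marrow libraries, and A the mean of the 6 libraries of 6w and 8w marrow. A member had N of at least 5 CPM, N of at least 2 times F, and A between 0.75 and 1.33 times N. Of 1121 autosomal regions that met the first 2 conditions, 329 were left out because A was lower and 188 because it was higher.

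ATAC-seq was used, where an enzyme (Tn5) inserts adapters into open DNA, on C57BL/6 mouse cells of the LSK phenotype. LSK cells lack markers of mature lineages and carry Sca-1 and Kit, a fraction that holds haematopoietic stem cells and early progenitors. Marrow was taken at the perinatal stage (Perinatal BM) and at 1w, 3w, 4w, 6w and 8w, fetal liver at E12.5 and E16.5, and a further group is E12.5 PL. Each group has 3 libraries, but 3w BM has 2, and in the labels no group carried an altered gene or a treatment. FL stands for fetal liver and BM for bone marrow, while the labels leave PL unexplained. Cells of E12.5 FL were also cultured and kept for 2 h either in basic medium, named SHI, or in one that hepatocytes of E16.5 had conditioned, named co-SHI, with 3 libraries of each. Whether libraries of one group came from separate animals or pools is not given in the labels.

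Blood stem cells of the mouse expand in the fetal liver and settle in the marrow around birth. In the liver they divide fast, and in marrow most of them gradually stop dividing. The marrow niche supplies signals such as TGF-beta, which acts through SMAD proteins, and inflammatory cytokines, which act through NF-kB and STAT proteins. Enhancers, the stretches that control genes from a distance, can open when transcription factors such as RUNX1, ETS family members or AP-1 bind them.

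Total counts over the developmental regions ran from 2845113 (1w BM 2) to 10167340 (1w BM 3). By title 8w BM 3 is an 8w library, while its stage is labelled E12.5. Its share of counts in the members was 1.16%, against 0.463% to 0.526% in E12.5 FL, but as 1 of 6 libraries in A it helped to choose them. Summed over the regions of 9 endothelial marker genes, all libraries titled 8w BM had 382 to 415 CPM and those of E12.5 FL 527 to 550 CPM. The library was used by its title. Summed over the regions of 7 LSK marker genes, the level was 418 to 444 CPM in E12.5 PL and 554 to 724 CPM in all other libraries. Ptprc, which encodes the leukocyte antigen CD45, had 35.6 to 44.1 CPM in E12.5 PL and 107 to 152 CPM elsewhere. Kit had 132 to 158 CPM in E12.5 PL and 71.8 to 107 CPM elsewhere. Ly6a, the gene of Sca-1, held 1 region of 0.322 to 5.11 CPM in all libraries. Endothelial marker genes (9) summed to 705 to 1070 CPM in E12.5 PL and 363 to 583 CPM elsewhere, trophoblast markers (9) to 318 to 440 and 179 to 327 CPM, macrophage markers (6) to 100 to 129 and 212 to 263 CPM, and neutrophil markers (6, of which 5 had a region) to 35.9 to 44.9 and 111 to 141 CPM. Hepatocyte markers (10, of which 8 had a region) summed to 132 to 176 CPM in E12.5 PL and 138 to 193 CPM elsewhere.

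Few members lay at promoters, and the 5 stretches below are shown as examples of 4 motifs found in those that did. Each is the 250 bases before a start listed in RefSeq for the build GRCm38.p6, read 5′ to 3′ along the gene, with the matches to 1 motif in capitals. Ctla2b, a relative of the inhibitory propeptides of cysteine proteases, and Sh2d1b1, an adaptor of natural killer cell receptors, are shown for AP-1 (TGANTCA). Kcnn4, a calcium-activated potassium channel, is shown for RUNX (TGTGGT or its reverse complement). The chemokine gene Cxcl2 is shown for NF-kB, and Pf4, the gene of platelet factor 4, for ETS (AGGAAGT, here on the opposite strand).
Ctla2b, chr13:60897448-60897697, minus strand: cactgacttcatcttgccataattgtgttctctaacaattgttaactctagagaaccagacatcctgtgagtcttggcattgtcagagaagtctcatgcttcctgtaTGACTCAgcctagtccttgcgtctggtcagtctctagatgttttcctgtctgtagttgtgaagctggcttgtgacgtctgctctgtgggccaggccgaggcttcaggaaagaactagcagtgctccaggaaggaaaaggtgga
Sh2d1b1, chr1:170277068-170277317, plus strand: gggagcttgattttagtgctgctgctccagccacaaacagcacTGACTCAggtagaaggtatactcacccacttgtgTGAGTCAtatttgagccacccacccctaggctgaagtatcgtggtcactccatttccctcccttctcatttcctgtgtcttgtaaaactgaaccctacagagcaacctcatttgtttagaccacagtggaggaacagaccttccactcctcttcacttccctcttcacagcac
Kcnn4, chr7:24370013-24370262, plus strand: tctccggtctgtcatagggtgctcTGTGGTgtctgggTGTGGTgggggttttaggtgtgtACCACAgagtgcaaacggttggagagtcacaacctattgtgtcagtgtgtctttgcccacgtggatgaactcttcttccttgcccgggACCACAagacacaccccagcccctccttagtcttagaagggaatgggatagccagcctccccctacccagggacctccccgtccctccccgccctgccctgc
Cxcl2, chr5:90903649-90903898, plus strand: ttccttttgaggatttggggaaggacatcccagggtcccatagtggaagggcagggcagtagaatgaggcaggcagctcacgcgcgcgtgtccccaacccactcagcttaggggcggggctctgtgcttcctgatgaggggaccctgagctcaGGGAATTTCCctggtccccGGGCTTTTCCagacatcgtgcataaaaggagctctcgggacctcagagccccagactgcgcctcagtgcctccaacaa
Pf4, chr5:90772185-90772434, plus strand: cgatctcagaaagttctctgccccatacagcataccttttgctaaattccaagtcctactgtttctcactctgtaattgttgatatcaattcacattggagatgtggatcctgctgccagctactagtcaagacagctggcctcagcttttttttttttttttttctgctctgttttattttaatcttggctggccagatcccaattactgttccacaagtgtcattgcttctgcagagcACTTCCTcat

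In Cxcl2 the 2 matches began 97 and 78 bases before the start, and in Kcnn4 the 4 RUNX matches began 226, 213, 190 and 102 bases before it. Across the genome's promoter table, 39 windows of 300 bases (250 before and 50 after a start, 38 genes) had at least 150 bases in a member. AP-1 letters were in 8 of these 39 windows (20.5%), against 4.68% of 13287 windows in autosomal regions with N of 5 CPM or more and 7.84% of all 31396 autosomal windows. STAT letters (TTCNNNGAA) were in 20.5%, against 6.40% and 8.35%. RUNX letters were in 20.5%, against 12.49% and 16.7%, and CEBP letters (TTGCNNAA) in 17.9%, against 7.496% and 10.9%. ETS letters were in 15.4%, against 9.02% and 9.37%, and NF-kB letters in 2 windows (5.13%), against 1.65% and 1.66%. GATA letters (AGATAA) were in 10.3%, against 5.48% and 11.2%, and an E-box (CAGNTG) in 53.8%, against 43.2% and 51.4%. Letters of the interferon-stimulated response element and of CTCF were in 0 of 39, against 2.72% and 0.316% of the windows in open regions and 3.46% and 0.217% of all windows. Both strands were searched, and among the 39 windows 1 AP-1 match overlapped an E-box and 1 ETS match overlapped a CEBP match. Some windows overlapped, and those of the gene Serpina3f shared STAT, CEBP and RUNX matches, which were counted in each. The median GC content of the 39 windows was 54.7%, with 6 CpG dinucleotides, against 62.3% and 22 in the windows of open regions and 53.0% and 7 in all autosomal windows. The members' promoters thus held fewer CpG dinucleotides than open promoters and about as many as promoters in general, and the motif shares are a description of letters in few windows.

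The members lay away from gene ends. Only 44 of 604 (7.28%) were within 1 kb of either end of an annotated gene span, against 32.0% of 44826 autosomal regions with N of 5 CPM or more and 18.2% of all regions. Gene bodies held 296 members (49.0%), intergenic stretches within 50 kb of a gene 163 (27.0%), and 101 (16.7%) had no named gene within 50 kb, against 37.7%, 21.1% and 9.18% of the autosomal regions with N of 5 CPM or more. As a comparison set, 23082 autosomal regions whose N was 0.75 to 1.33 times F and whose A was 0.75 to 1.33 times N are called steady regions, and 40.6% of these were at gene ends. With gene starts from the promoter table in place of span ends, 84 members (13.9%) were within 1 kb of a start, against 33.95% of the autosomal regions with N of 5 CPM or more. The median width of a member was 588 bp, and 28 members (4.64%) were 1000 bp or wider, against 15.1%. No precursor of a microRNA in the RefSeq table lay within 1 kb of a member.

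**Figure D1:**
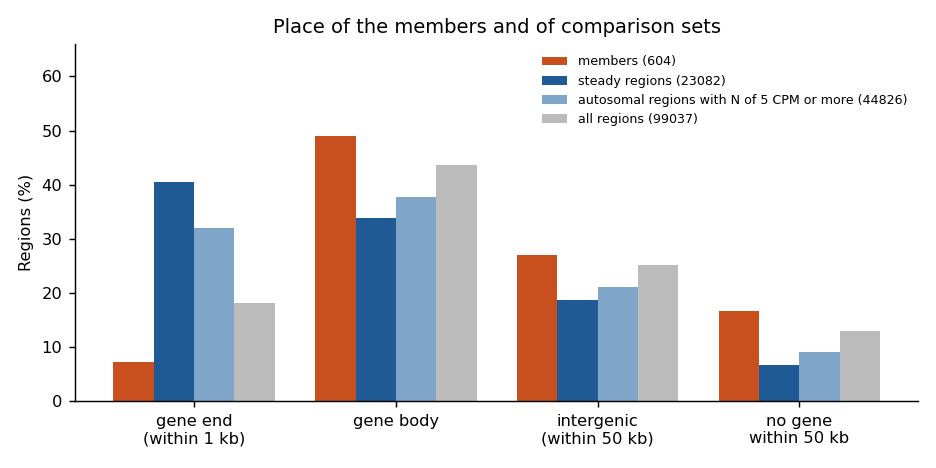
Bars give the percentage of regions at gene ends, in gene bodies, in intergenic stretches and without a gene within 50 kb, for the members, steady regions, autosomal regions with N of 5 CPM or more, and all regions. Members have the lowest bar at gene ends, 7.28%, and the highest in the other 3 places.

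The levels that chose the members rose mainly between E16.5 FL and perinatal marrow. The median member stood at 6.09 CPM in E12.5 FL, 7.62 in E16.5 FL, 15.7 in Perinatal BM, 18.0 in 1w BM, 17.5 in 3w BM, 16.1 in 4w BM, 16.9 in 6w BM and 17.5 CPM in 8w BM. In E12.5 PL it stood at 4.69 CPM. Together the members took 0.498% ± 0.032 of counts in E12.5 FL, 0.597% ± 0.096 in E16.5 FL, 1.22% ± 0.19 in Perinatal BM and 1.38% ± 0.096 in 1w BM (SD, n = 3 each). All libraries of the liver and PL groups lay at or below 0.657% and all marrow libraries at or above 1.05%. In bulk libraries a rise of this kind cannot be split into more cells with the open region and more opening per cell.

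**Figure D2:**
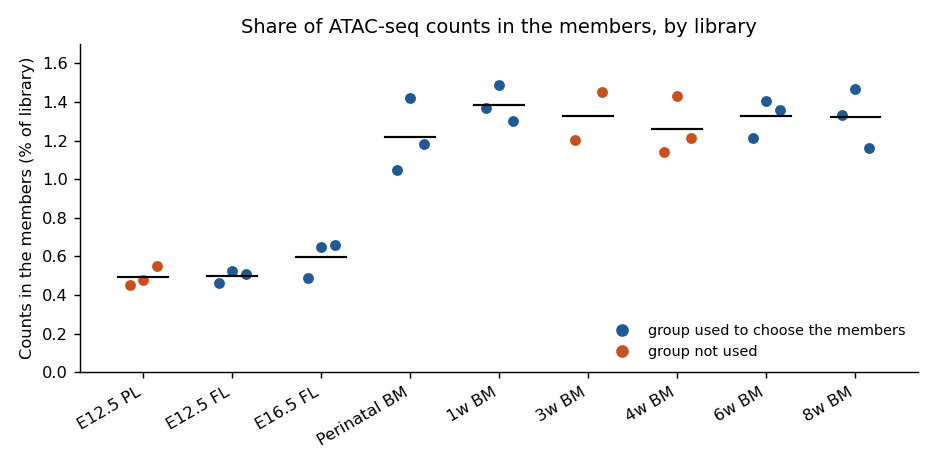
Each point is a library and gives the percentage of its counts that fell in the 604 members, with the group mean as a line. Blue groups chose the members and orange groups did not. The 5 orange 3w and 4w BM points lie between 1.14% and 1.45%, and the 3 orange E12.5 PL points between 0.449% and 0.550%.

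Because the liver and early marrow libraries chose the members, their difference is given as a description. The ratio of N to F was between 2 and 2.2 in 233 members, 3 or more in 58 and 4 or more in 13, with a median of 2.31. The member nearest the limit had a ratio of 2.00, as had the region just outside it, and in the level of N the nearest values were 5.04 CPM inside and 4.93 CPM outside. For A over N they were 0.751 inside and 0.748 outside at the lower end, and both 1.33 at the upper end. All 6 early marrow libraries lay above all 6 liver libraries in 381 members (63.1%), where 2.67% of all regions do so. The 5 libraries of 3w and 4w BM lay above the same liver libraries in 418 members (69.2%), where 5.36% of all regions do so, and nothing is read from this since the liver libraries chose the members. With library totals scaled by TMM in place of plain totals, 1283 regions met the rule, among them 565 of the 604 members. Within the liver, E16.5 FL was above E12.5 FL in 467 members (77.3%, against 56.1% of all regions). It was so by at least 1.5 times in 204 (33.8%, against 17.0%). Perinatal BM was at least 2 times E16.5 FL in 311 members (51.5%, against 1.45% of all regions). In 432 members 1w BM was above Perinatal BM (71.5%, against 41.95%).

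The members with the most counts were near genes of varied function, and levels of different regions are not scaled for width. The highest N, 87.7 CPM, was at the end of Ctla2b (chr13:60897241-60897814), the region that holds the promoter stretch shown above. It had 29.0 to 62.4 CPM in the 6 liver libraries and 69.4 to 118 CPM in the 6 of early marrow. Next came regions at Cmip (75.3 CPM), a gene of T cell signalling, in Nek6 (75.1 CPM), a mitotic kinase, and in Eef2k (73.3 CPM), the kinase that blocks translation elongation factor 2. Ago2, the argonaute that cuts microRNA targets, held a member of 70.3 CPM, and Tmigd3 one of 69.8 CPM. An intergenic member 1834 bp from Med29, a mediator subunit, had 69.3 CPM, and one in Peli2, a ubiquitin ligase of Toll-like receptor signalling, 66.5 CPM.

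The steepest rise was in the body of Il6ra, which encodes the alpha chain of the interleukin-6 receptor (chr3:89872101-89872645). Its 3 E12.5 FL libraries had 2.02, 3.66 and 2.72 CPM and its 3 E16.5 FL libraries 2.39, 7.22 and 3.88 CPM. Perinatal BM had 13.9, 19 and 15.1 CPM and 1w BM 22.8, 30.2 and 21.8 CPM. N was 5.62 times F, and no liver library reached a marrow library. A member 48180 bp from the mitochondrial ribosomal gene Mrpl14 rose 5.21 times. Members in Clmn (4.42 times), Pkd1l2 (4.25), Tnik (4.21), a kinase of Wnt signalling, and Plekha2 (4.20), an adaptor that binds phosphoinositides, followed. Those in Cracdl (4.12) and Sulf2 (4.07), which trims heparan sulfate outside the cell, completed the 8.

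The members with a named gene numbered 503 and were spread over 445 genes, so that 3.10% of the 14363 genes with an autosomal region of N of 5 CPM or more had one. Of 22 gene lists covering blood lineages, signalling and other cell types of liver and marrow, 13 held a gene with a member. Together these were 30 members at 21 genes. Lists of adult-type stem cell, T and NK cell, neutrophil, erythroid, cholesterol synthesis, hepatocyte, endothelial, trophoblast and mast cell genes held none.

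Among 23 genes of stem and progenitor identity with a region, Runx1 and Adgrg1 had members, 3 of 199 regions (1.51%, against 1.24% of the regions of all genes). Runx1 is the transcription factor needed for blood stem cells to form and for many later lineages. Its member in the gene body (chr16:92620642-92621212) had 7.56, 10.4 and 12.8 CPM in E12.5 FL and 8.68, 18.1 and 16.1 CPM in E16.5 FL. Perinatal BM had 26.9, 33.4 and 40.4 CPM and 1w BM 32.3, 42.2 and 36.2 CPM, all above all liver libraries. Adgrg1 encodes GPR56, an adhesion receptor of stem cells, and its member with the highest N (chr8:94978141-94979094) had 7.84 to 16.6 CPM in the liver libraries and 16.8 to 42.5 CPM in early marrow.

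TGF-beta feedback genes held the most members for their regions, 6 of 117 (5.13%), at 2 of 20 genes. Skil encodes SnoN, a repressor of SMAD signalling, and had 3. The one at its gene end (chr3:31095419-31096032) stood at 13.3 to 20.4 CPM in the liver libraries and 26 to 69.6 CPM in early marrow. Smad7, the inhibitory SMAD, had 3 intergenic members on chromosome 18, at 1559, 9624 and 14088 bp from the gene. The farthest had 11.9 to 23.9 CPM in the liver libraries and 23.6 to 49.9 CPM in early marrow, where Perinatal BM 1 alone reached into the liver range. The neighbouring gene Ctif, a translation initiation factor of the cap-binding complex, held 5 members. Together these 8 lay within 97.7 kb and made up 8 of the 15 autosomal regions with N of 5 CPM or more there, the run with the most members among those in which each lay within 50 kb of the next. Pmepa1, a TGF-beta-induced inhibitor of SMAD signalling that is not in the list, had 3 members, with N of 46.6, 37.5 and 33.1 CPM and F of 12.6, 18.0 and 11.7 CPM.

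NF-kB and inflammatory genes held 4 members of 96 regions (4.17%), at Il6ra (2), Cxcl2 and Traf1. Cxcl2 encodes a chemokine that draws neutrophils, and the member that covers its promoter (chr5:90902848-90904106) had 13.0 to 20.7 CPM in the liver libraries and 22.1 to 46.8 CPM in early marrow. The member in Traf1, an adaptor of TNF receptors, had N of 23.7 CPM and F of 10.7 CPM. JAK-STAT genes held 3 of 108 regions, 2 at Bcl3, an atypical IkB protein (N of 26.4 and 23.0 CPM), and 1 at the kinase gene Jak1. Immediate early genes held 3 of 140 regions, 2 at Nr4a1, an orphan nuclear receptor induced by stimulation, and 1 near Fosb, an AP-1 subunit. The Nr4a1 member at an internal start of the gene (chr15:101266443-101267046) had 21.2 to 32.0 CPM in the liver libraries and 37.2 to 66 CPM in early marrow.

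The other lists held 1 or 2 members each. Megakaryocyte genes had members at the promoter of Pf4 (N of 25.1 CPM, F of 12.2 CPM) and in Rab27b (41.6 and 20.7 CPM), a GTPase of platelet granule release. In Bach2, a repressor that guides lymphoid fate, the member (chr4:32257581-32258626) had 4.89 to 12.8 CPM in the liver libraries and 16.53 to 29.2 CPM in early marrow. Glycolysis and hypoxia genes had members near Pfkfb3, a driver of glycolysis (N of 36.5 CPM), and in Egln3, an oxygen-sensing hydroxylase (22.2 CPM). Single members lay near Ackr3, a scavenger receptor of the homing chemokine CXCL12 (10.4 CPM), at Ifi27, an interferon-induced gene (8.55 CPM), near the macrophage factor gene Maf (5.30 CPM) and near Dlk1 (16.1 CPM), a gene of fetal growth. Runx2, the bone cell factor, held 2 in its gene body (14.2 and 10.1 CPM).

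Besides Ctif, 6 genes had 3 members each, Kcnn4, Pmepa1, Abcc4, Arhgef10, Skil and Smad7, and 49 genes had 2 or more. The 3 members of Kcnn4 lay within 18.0 kb, had N of 60.9, 49.4 and 36.8 CPM and made up 3 of the 5 regions with N of 5 CPM or more there. Those of Arhgef10 had N of 36.2, 29.2 and 19.7 CPM, and those of Abcc4, an exporter of nucleotides and drugs, 39.3, 35.0 and 22.0 CPM. Cdh26, a cadherin gene, had 2 intergenic members of 63.5 and 59.0 CPM. Members of 1 gene share a locus and are not independent of each other.

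**Figure D3:**
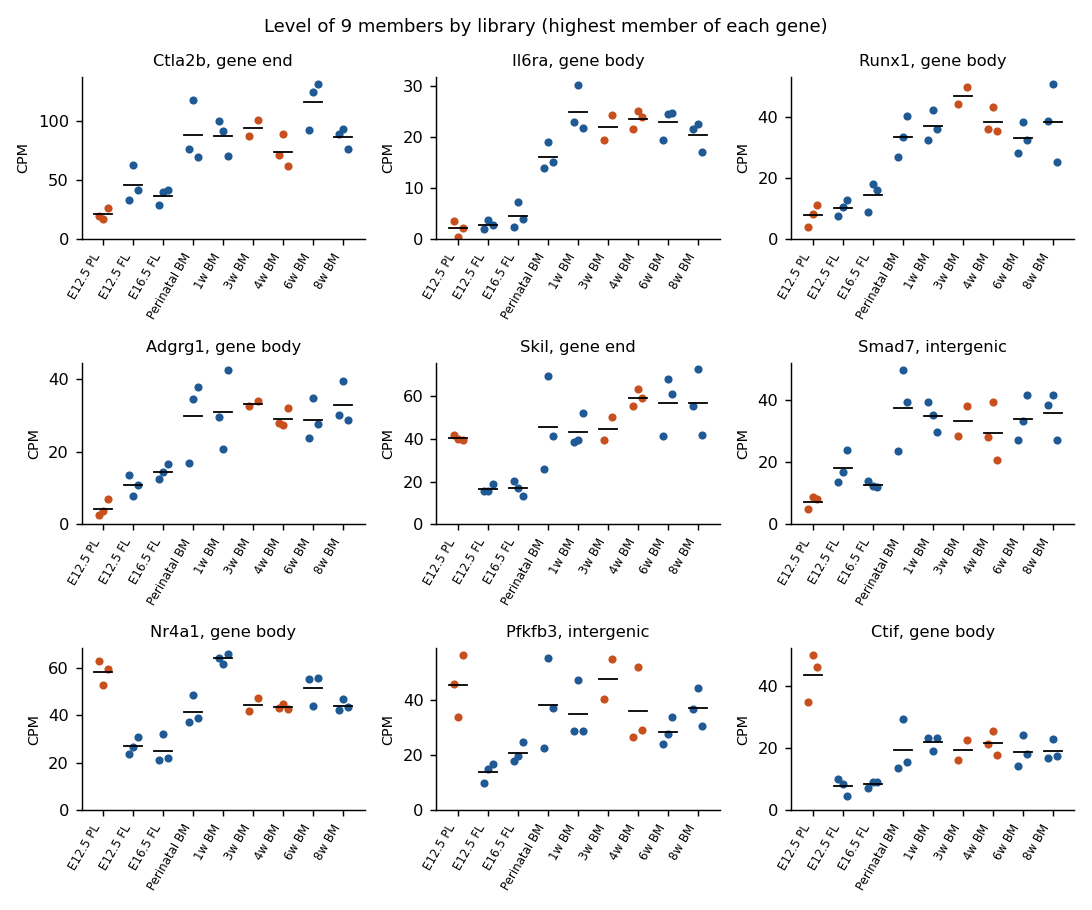
Each panel shows the CPM of 1 member in every developmental library, with group means as lines, blue for groups that chose the members and orange for the others. Liver points lie below most marrow points in all 9 panels, while the orange E12.5 PL points lie below all others in the Ctla2b, Adgrg1 and Smad7 panels and above all others in the Ctif panel.

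Neither E12.5 PL nor 3w and 4w BM entered the rule. As 3w and 4w lie between marrow ages that did, a high marrow level was largely set by the rule. Most members were less open in E12.5 PL than in 3w and 4w marrow. Of 604 members, 491 were higher in 3w and 4w BM, where 26.5% of all 99005 regions tested were, and 25 were lower, against 30.1% (edgeR quasi-likelihood test, Benjamini-Hochberg adjusted p under 0.05 over all regions). The other 88 members did not pass. Of steady regions, 37.5% were higher and 20.6% lower. The median log2 fold change of the members was 1.81, against 0.04 for all regions and 0.17 for steady regions. All 5 libraries of 3w and 4w BM lay above all 3 of E12.5 PL in 476 members (78.8%), against 26.8% of all regions, and below in 12 (1.99%), against 25.3%. Scaling moved the median of all regions from 0.04 to -0.25 with DESeq2 size factors and 0.15 with plain totals, and the members' median to 1.52 and 1.91. With loess offsets the median was -0.08 for all regions and 1.33 for the members, with 43.4% and 91.1% of calls higher in marrow. The share of calls that were higher in marrow was 95.2% for the members, and 92.4% and 96.0% with DESeq2 size factors and plain totals. For all regions it went from 46.8% to 34.6% and 51.2% with these 2.

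**Figure D4:**
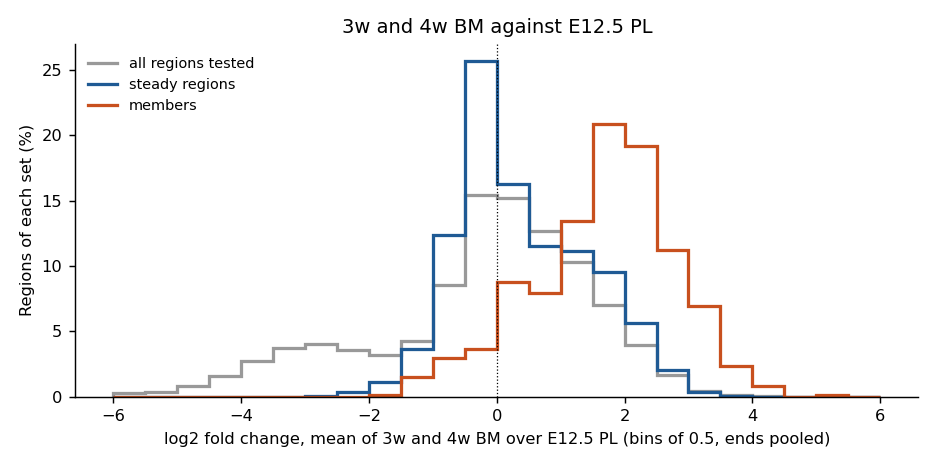
Lines give the percentage of each set of regions by log2 fold change, the mean of 3w and 4w BM over E12.5 PL. Members peak near 2, steady regions just below 0, and all regions have a second hump of regions that are higher in E12.5 PL near -3.

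In E12.5 PL the median member stood at 0.259 times its N, and 463 members (76.7%) at 0.5 times N or less, where 31.7% of steady regions did. The mean of E12.5 PL was below F in 431 members (71.4%), against 61.2% of all regions and 59.3% of steady regions. Place moved with this value. At gene ends the median ratio of E12.5 PL to N was 0.401 in members and 1.13 in steady regions, in gene bodies 0.251 and 0.533, in intergenic stretches 0.258 and 0.541, and without a gene 0.223 and 0.399. Relative to N members were thus lower than steady regions in each of the 4 places, a difference that was not tested because N chose the members. Relative to F the order was the other way in 3 of the 4 places. E12.5 PL was below F in 212 of 296 members in gene bodies, 114 of 163 in intergenic stretches and 82 of 101 without a gene, against 77.4%, 79.6% and 85.7% of steady regions. At gene ends it was below F in 23 of 44 members, against 30.3%. E12.5 PL libraries lay outside the range of all others in the LSK, endothelial, macrophage and neutrophil markers given above, and overlapped that range in the trophoblast markers, and the part of these in the result was not tested.

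Members among those with the smallest p had a few CPM in E12.5 PL. The member in Eef2k had 7.30 to 8.81 CPM in E12.5 PL and 75.1 to 93.9 CPM in 3w and 4w BM (log2 fold change 3.27, SE 0.20, edgeR adjusted p = 5.1e-20). The 3 PL libraries were also below the 21.2 to 33.7 CPM of the liver libraries. One near Plac8 had 2.89 to 6.12 and 47.6 to 67.0 CPM (3.38, SE 0.22), and one in Gna15, a G protein of blood cells, 5.16 to 6.00 and 48.1 to 69.8 CPM (3.20, SE 0.22). Near Cdh26 the values were 3.78 to 8.29 and 42.7 to 64.9 CPM (3.16, SE 0.22). Near Tcf7l1, a TCF factor of Wnt signalling, they were 0.667 to 2.76 and 30.8 to 53.2 CPM (4.18, SE 0.30). In none of these 5 did a PL library reach a marrow library.

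Runx1, Adgrg1 and Bach2 showed the same direction. The Runx1 member had 4.00, 8.09 and 11.2 CPM in E12.5 PL against 35.3 to 49.8 CPM in 3w and 4w BM (log2 fold change 2.34, SE 0.24, edgeR adjusted p = 5.2e-12). The Adgrg1 member had 2.45, 3.75 and 6.88 CPM against 27.4 to 33.8 CPM (2.72, SE 0.27), and the Bach2 member 2.22, 3.16 and 5.16 CPM against 21.7 to 41.0 CPM (3.05, SE 0.26). At Il6ra E12.5 PL had 3.56, 0.395 and 2.15 CPM and 3w and 4w BM 19.4 to 25.1 CPM (3.40, SE 0.32). Ctla2b was higher in marrow by 1.90 (SE 0.20), and all 3 members of Kcnn4 by 2.67, 1.43 and 1.58, as were all 3 of Arhgef10 (2.10, 2.07 and 2.24). Cmip passed at 0.47 (SE 0.15) and did not pass with DESeq2 size factors (0.17, adjusted p = 0.34) or without E12.5 PL 3 (0.40, adjusted p = 0.051).

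Called members went both ways at TGF-beta feedback genes, and the 2 called at immediate early genes, both of Nr4a1, were lower in 3w and 4w BM. Of 6 members in the TGF-beta list, 2 were higher in 3w and 4w BM and 2 lower, and of 3 in the immediate early list, 0 were higher and 2 lower. The member near Fosb did not pass (log2 fold change 0.33, SE 0.24, edgeR adjusted p = 0.26). Over all 30 members at list genes, 17 were higher and 4 lower. Of all 604 members 81.3% were higher and 4.14% lower, and of all regions tested 26.5% and 30.1%. At the end of Skil, E12.5 PL had 41.8, 40.3 and 39.3 CPM, 3w BM 39.3 and 50.4 CPM and 4w BM 55.5, 63.6 and 59.1 CPM, a log2 fold change of 0.25 that did not pass (SE 0.19, edgeR adjusted p = 0.28). The PL libraries there overlapped those of marrow and lay well above the liver libraries. The Smad7 member at 14088 bp was higher in marrow (2.00, SE 0.25), while the one at 9624 bp was lower, with 24.0, 17.0 and 20.6 CPM in E12.5 PL and 8.54 to 10.7 CPM in 3w and 4w BM (-1.20, SE 0.28). The one at 1559 bp was lower too (-1.26, SE 0.32, adjusted p = 0.00079), a call lost without E12.5 PL 2 (-0.72, adjusted p = 0.093). In the run of 8 members over Smad7 and Ctif, 3 were higher and 3 lower, so neighbouring members went both ways. The Ctif member with the highest N had 34.9, 49.9 and 46.0 CPM in E12.5 PL and 16 to 25.5 CPM in 3w and 4w BM (-1.21, SE 0.21, adjusted p = 1.9e-06).

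Nr4a1 had both members higher in E12.5 PL than in 3w and 4w BM, but not than in 1w BM. The member at the internal start had 62.7, 52.9 and 59.5 CPM in E12.5 PL against 41.9 to 47.1 CPM in 3w and 4w BM (log2 fold change -0.51, SE 0.15, edgeR adjusted p = 0.003). The member at the gene end (chr15:101253803-101254438) had 31.1, 28 and 37.2 CPM against 14.9 to 20.6 CPM (-0.91, SE 0.20, adjusted p = 9.7e-05), and neither pair of groups overlapped. Regions near Zswim4 (-1.18), near Wdyhv1 (-1.18), an amidohydrolase of N-terminal glutamine, and in Fam102b (-1.13) were higher in E12.5 PL than in 3w and 4w BM too. The one near Wdyhv1 had 26.8 to 37.4 CPM in E12.5 PL and 2.72 to 8.08 CPM in the liver libraries, and its marrow levels lay between those of PL and liver in the means. A member 2143 bp from Hes1, a target of Notch (-0.84), was lower in 3w and 4w BM as well. So was the member at 1 of the 2 sites of Nab2, a corepressor of EGR factors (-0.64). Both were chosen after their values were seen. The Hes1 member had 44.2 to 45.6 CPM in E12.5 PL, but 38.7 to 48.2 CPM in 1w BM and 32.1 to 50.8 CPM in 6w BM.

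Several members at signalling genes did not pass the test between E12.5 PL and later marrow. At the promoter of Cxcl2 E12.5 PL had 25.6, 12 and 16.1 CPM and 3w and 4w BM 21.9 to 29.6 CPM (log2 fold change 0.39, SE 0.21, edgeR adjusted p = 0.11). Near Pfkfb3 they were 33.7 to 56.3 and 26.6 to 54.8 CPM (-0.22, SE 0.21), and in Egln3 6.12 to 20.2 and 13.3 to 28.8 CPM (0.57, SE 0.26, adjusted p = 0.058). Of the 2 members of Bcl3, the one at 7880 bp was higher in marrow (1.04, SE 0.21), and the one at the gene end gave 0.02 (SE 0.22). Of the 3 members of Pmepa1 the intergenic one was higher in marrow (1.97, SE 0.25), the one at the gene end gave -0.01 (SE 0.17), and the one in the gene body was called at 0.82 (SE 0.24, adjusted p = 0.0025) but not with DESeq2 size factors (0.52, adjusted p = 0.052). Pf4 was higher in marrow, at 15.1 to 28.1 CPM against 5.33 to 7.09 CPM (1.56, SE 0.25).

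Between 3w and 4w BM the members did not change by the test. The edgeR test called 0 of 604 members in either direction, where it called 0.00101% of all regions higher and 0.00707% lower, 1 and 7 regions. At an unadjusted p under 0.05 there were 36 of 604 members, against 4102 of 99005 regions, and DESeq2 also called 0 members. The median log2 fold change of the members was -0.07, and the mean of 3w and 4w BM was 0.75 to 1.33 times N, which chose the members, in 514 members (85.1%), against 66.4% of all regions.

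The deposited peak lists, called per library by the authors, covered more of the members in marrow than in E12.5 PL. Peaks overlapped 93.5% of the members in 3w BM (n = 2) and 84.2% ± 9.7 in 4w BM (SD, n = 3), against 27.6% ± 5.7 in E12.5 PL (n = 3). For steady regions these shares were 81.7%, 71.9% and 48.4%, so that members were covered more often than steady regions in marrow and less often in E12.5 PL. In cultured E12.5 FL cells the share was 76.3% ± 2.2 in SHI and 71.6% ± 10.4 in co-SHI (n = 3 each). For steady regions it was 93.5% and 85.6%, so members were covered less often than steady regions there. In the groups that chose the members, which is a description, the share of members was 21.2% in E12.5 FL, 18.7% in E16.5 FL, 76.0% in Perinatal BM and 90.9% in 1w BM. For steady regions these were 48.4%, 33.4%, 62.9% and 77.6%. Peak lists differed in length, with 24968 to 37324 peaks in E12.5 PL, 40631 to 50657 in 3w BM and 28609 to 48379 in 4w BM. There were 74151 to 79118 in SHI, 42017 to 75903 in co-SHI, 19244 to 23478 in E12.5 FL and 24038 to 40830 in Perinatal BM. The part of list length in these shares was not tested, and a high share in 3w and 4w BM was largely set by the rule. A peak was present in all 5 libraries of 3w and 4w BM in 433 members and in none in 15. In 366 members no E12.5 PL library had a peak, and 231 had peaks in all 3w and 4w libraries and in no PL library. Of the 25 members higher in E12.5 PL, 18 had a peak in all 3 PL libraries.

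In cultured E12.5 FL cells most members stood lower in co-SHI than in SHI, and few single members passed. The members share the same 6 libraries and are not replicates, so the balance between them was not tested. Members were joined to the table of cultured cells where regions overlapped by 50% of each, which gave 553 of 604. Of these 0 were higher in co-SHI, where 0.228% of all 145129 regions tested were, and 21 were lower, against 0.332% (edgeR, adjusted p under 0.05). At an unadjusted p under 0.05 in either direction there were 153 of 553 members, against 18097 of 145129 regions, and DESeq2 called 0 higher and 16 lower. The median log2 fold change was -0.22 in members, 0.00 in all regions and -0.01 in steady regions, and 411 members (74.3%) were below 0, against 49.7% of all regions. The number of lower calls rested on single libraries. It was 15 without SHI 1, 3 without SHI 2, 3 without SHI 3, 1 without co-SHI 1, 0 without co-SHI 2 and 93 without co-SHI 3, and 1 and 3 members were called higher without SHI 1 and without co-SHI 3. The members' median stayed between -0.29 and -0.15 in these fits. Total counts were 7512258 to 11655458 in SHI and 14280440 to 20092146 in co-SHI, and the part of this difference in depth was not tested. Of the cultured libraries co-SHI 2 had the shortest peak list, 42017 peaks, and the part of this was not tested either. Steady regions also differ from the members in place, as given above.

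**Figure D5:**
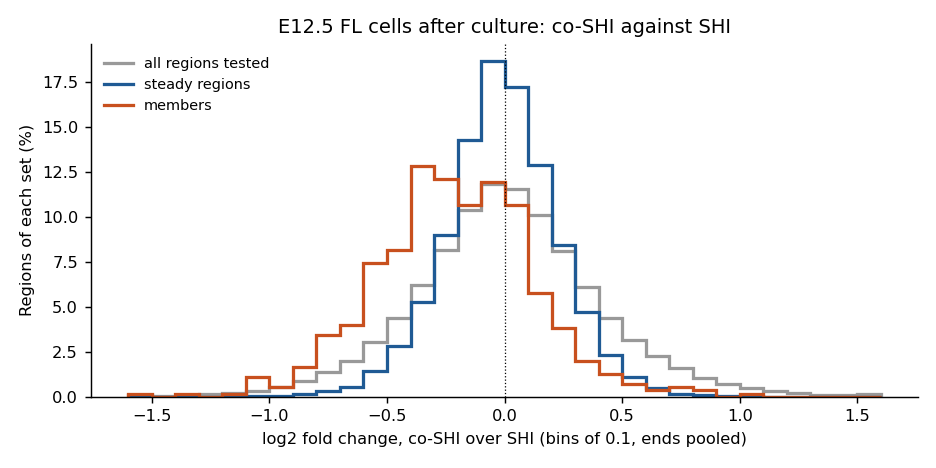
Lines give the percentage of each set of regions by log2 fold change, co-SHI over SHI. Steady regions and all regions peak close to 0, and the line of the members is shifted to the left, with a median of -0.22.

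Among the members, that in Runx1 had the smallest p in the cultured cells. It had 24.8, 31.1 and 35.1 CPM in SHI and 18.0, 14.9 and 20.9 CPM in co-SHI, with no overlap (log2 fold change -0.76, SE 0.14, edgeR adjusted p = 0.0063). Without co-SHI 2 it did not pass (-0.63, adjusted p = 0.13), nor without SHI 3 (-0.63, adjusted p = 0.070). In Sbno2, a transcriptional regulator induced by cytokines, SHI had 13.9, 17.3 and 17.8 CPM and co-SHI 7.60, 7.32 and 11.0 CPM (-0.93, SE 0.18). That call was lost without SHI 2 (-0.89, adjusted p = 0.057), co-SHI 1 (-0.82, adjusted p = 0.094) or co-SHI 2 (-0.81, adjusted p = 0.11). At Ifi27 SHI had 13.6, 8.92 and 12.1 CPM and co-SHI 6.96, 6.32 and 5.60 CPM (-0.89, SE 0.19). Near Proc, the gene of the anticoagulant protein C, they were 22.8 to 26 and 12.2 to 18.6 CPM (-0.67, SE 0.15). Ifi27 did not pass without any 1 of SHI 1, SHI 3, co-SHI 1 and co-SHI 2, with log2 fold changes of -0.76, -0.85, -0.95 and -0.88. Proc did not pass without any 1 of SHI 1, SHI 2, co-SHI 1 and co-SHI 2, with -0.64, -0.65, -0.67 and -0.51.

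Of the other members called lower, 1 lay near Fosb (6.57 against 2.96 CPM, -1.15, SE 0.27), 1 near Pfkfb3 (36.2 against 23.5 CPM, -0.64, SE 0.15) and 1 near Ifngr1, the interferon-gamma receptor (11.2 against 6.55 CPM, -0.76, SE 0.19). The call near Pfkfb3 did not hold in DESeq2 (adjusted p = 0.052). Others were in Tnip1, an inhibitor of NF-kB signalling (-1.02), near Mefv, the gene of pyrin (-0.84), near Tle3, a Groucho corepressor (-0.70), and 40200 bp from Hes1 (-0.61), a different member from the one near Hes1 given above. By their behaviour in E12.5 PL, 9 of 449 joined members that were lower in E12.5 PL than in 3w and 4w BM were called lower in co-SHI, 2 of 22 that were higher, and 10 of 82 that had not passed. The Il6ra member with the steepest rise (chr3:89872101-89872645) and the members at the promoters of Pf4 and Cxcl2 had no region of the cultured table tested with them. No value is given for these. The Smad7 member at 9624 bp (-0.83, adjusted p = 0.16) and the Skil member at the gene end (-0.40, adjusted p = 0.24) did not pass.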

How the data were processed

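ATAC-seq counts in 99037 regions of 26 developmental libraries and in the cultured libraries were analysed as deposited. Counts are whole reads per region, not normalized, per the file headers, and the authors' peak lists give −log10 q per peak. Trim Galore, MACS2, deepTools, DiffBind, HOMER and mm10 are named in the submitters' processing notes, and the aligner is not given in the sources used here. Coordinates are mm10, counted from 1.

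CPM used column sums over all regions. Tests used edgeR 4.0.16 (quasi-likelihood, TMM, filterByExpr with a minimum count of 10, R 4.3.3), with all 26 developmental libraries in one fit of 9 group means and the 6 cultured libraries in another. P-values were adjusted by Benjamini-Hochberg over all regions, with a threshold of 0.05, and measure the spread between these libraries, which may be technical. Replicates differed by more than sampling noise, and none were merged. Of the table of cultured cells, 3 columns entered no comparison. Genes are the nearest of 20343 named RefSeq genes within 50 kb. Peaks counted when they shared 1 base with a member (bedtools 2.31.1).

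On simulated counts for 20000 regions with E12.5 PL against 3w and 4w BM, 42 of 100 regions changed 2 times and 94 of 100 changed 4 times were recovered. For 4w against 3w BM these were 22 and 89, and for co-SHI against SHI 34 and 92. False calls were 7, 7 and 5. Simulated counts held only the libraries compared, a single fixed spread for all regions and 100 changed regions per size of change. In the real test against E12.5 PL 26.5% of all regions were called higher and 30.1% lower, so the recovered shares do not carry over to it.

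Members, gene lists and tests were chosen with earlier results of these data known. The genes named were the 8 members of highest N, the 8 of highest N over F, the 6 of smallest p in each direction against E12.5 PL (adjusted p under 0.05, log2 fold change of at least 1, no overlap), up to 2 members of highest N per list, up to 4 called members per direction in the other tests, the 8 genes with most members, and Kit, Ly6a and Ptprc. Other genes named were chosen after their values were seen. One of the genes the rule names is not reported here.

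Alternatives were DESeq2 1.42.0, its size factors, plain totals, loess offsets (limma 3.58.1), no filter, a replicate block, fewer groups, other limits of the rule, and leaving out each library.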

Additional observations from a re-analysis of the deposited data

How the results depend on the processing

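Among 60 named calls, 856 of 885 alternative values kept their direction and their side of the threshold, 29 no longer passed and 0 reversed. In addition to those given above, the Ifi27 member lost its call against E12.5 PL (0.81, adjusted p = 0.0097) with DESeq2 (0.52, adjusted p = 0.10), with its size factors (0.52), when E12.5 PL 1 was left out (0.63, adjusted p = 0.076) and under loess offsets (0.18, adjusted p = 0.62). The Pfkfb3 call in cultured cells was lost in DESeq2 and without any 1 library other than co-SHI 3. Members lower in marrow than in E12.5 PL numbered 43 with loess offsets, and with leave-one-out they ranged from 18 to 25 and the higher ones from 478 to 496. With membership from TMM-scaled CPM, chosen after seeing the data, 1001 regions were higher and 75 lower.

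The number of regions that met the rule was 1283 with TMM-scaled CPM, 3280 with N of at least 1.5 times F, 58 with N of at least 3 times F, 968 with A of 0.5 to 2 times N, and 533 to 757 when 1 library was left out. With gene ends drawn at 2.5 kb, 10.8% of the members lay there. Peaks of −log10 q of at least 5 covered 91.0% of the members in 3w BM. When a peak had to cover 50% of the region, the shares were 72.1% in 3w BM, 60.9% in 4w BM, 14.4% in E12.5 PL, 58.7% in SHI and 51.2% in co-SHI.

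The labels give libraries of different groups the same numbers. Same-numbered libraries correlated in their deviations at -0.02 to 0.12, so the numbers are not taken as pairs. With a replicate block the calls between 4w and 3w BM over all regions were 19 and the members called lower in co-SHI were 32, which held all 21 of the calls without it. Between 4w and 3w BM the calls over all regions were 0 with DESeq2, 101 with only the groups compared and 0 to 4 with leave-one-out, and 0 members were called under each of these. In co-SHI, leave-one-out gave 0 to 93 members lower, 0 to 3 higher and 185 to 3375 regions called. Members with few counts were limited by depth, and 3w BM rests on 2 libraries.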

Other observations

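The members were not spread evenly over the chromosomes. As a share of the autosomal regions with N of 5 CPM or more, they ranged from 0.697% on chromosome 11 (22 of 3155) to 1.95% on chromosome 18 (27 of 1388). Apart from the run over Smad7 and Ctif, 5 members lay within 108 kb around Pmepa1 on chromosome 2, among 8 such regions, and 3 of these members were higher in 3w and 4w BM than in E12.5 PL. All 3 regions of N of 5 CPM or more over 25.4 kb at Gas6, the gene of a ligand for TAM receptor kinases, and Rasa3, a regulator of Ras and Rap in platelets, were members and were higher in 3w and 4w BM. The same held for 3 members of 7 such regions at Nid1 and Lyst and for 3 of 4 near Mrpl14. These runs were found by position after the members were known, and their number was not tested.

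The highest level of any member in E12.5 PL was in Tmbim1, the gene of a membrane protein that limits Fas-mediated cell death, with 90.7, 105 and 136 CPM there and 16.4 to 31.8 CPM in the 6 liver libraries. The 5 libraries of 3w and 4w BM had 46.3 to 84.0 CPM, all below E12.5 PL (log2 fold change -0.94, SE 0.19, edgeR adjusted p = 4.7e-05). The same member was lower in co-SHI than in SHI (47.2 against 30.9 CPM, -0.61, SE 0.15), with overlap between the libraries.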
